A study of Mus musculus with 22 samples.

Results

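The transcriptomes of duodenal organoids exposed to cold atmospheric plasma (CAP) through conditioned medium were compared with those of organoids whose own culture was placed under the plasma jet. The comparison holds 6 of the 22 RNA-seq libraries of the series: 3 of indirect CAP and 3 of direct CAP, both begun on day 1 after replating, and chosen by the group and organoid line in their labels. Each group holds the same 3 lines (2, CD1 and WT2), so that every indirect library has a direct partner of its own line. Organoids were grown from the duodenum of wild-type adult CD1 mice, 1 mouse a line, and were at passage 4 (line 2), 12 (line CD1) and 14 (line WT2) by the labels. All 6 cultures therefore share genotype, strain and tissue, and none carries a transgene, while passage differs between lines and goes with them.

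In direct CAP the culture, in gel under its medium, was set below the helium jet at a distance chosen so that the visible plume did not reach the medium, and the treated medium was left in place for a day before it was replaced. In indirect CAP untouched organoids of the same line received medium freshly taken from another treated culture. The study describes a moderate dose, with fresh medium given after the contact and the transcriptome analysed a day later. The methods give 1 day of contact for indirect CAP as well, whereas the deposited labels give 24 hours for direct and 30 minutes for indirect CAP, so that route and contact time cannot be told apart if the labels are right. A further 4 untreated libraries and 3 libraries of plasma-activated medium (PAM), which is medium treated without organoids, serve below only as points of reference.

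A plasma jet in air makes short-lived and long-lived reactive oxygen and nitrogen species, of which the longer-lived ones, with what the treated cells released, can travel with the medium. Intestinal organoids are a closed epithelium that is renewed by Lgr5-positive crypt stem cells. After injury the epithelium loses stem cell transcripts and takes on a fetal-like programme with Clu, Ly6a, Anxa1 and keratins, which is tied to repair, and oxidants add the NRF2, ATF4 and p53 responses and the rapid transcription of AP-1 genes.

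The study's methods define the values as counts per kilobase of transcript and per 20 M mapped reads (M, mega), whereas the deposited values are whole numbers that sum to about that total in each library and were read here as scaled counts not divided by length. Under either definition they are used below to compare the same gene between libraries and not 1 gene with another. The 6 libraries summed to between 20011102 and 20016513 and held between 25617 and 27131 genes above 0. On that reading, and from the spacing of the low values, they were estimated to rest on 19.4 to 24.1 M counted reads. Where 3 values follow each other below, they belong to lines 2, CD1 and WT2 in that order. A difference is the log2 of value + 1 with indirect CAP minus that with direct CAP, so that a positive one means higher with indirect CAP, and its error is the standard error (SE) of the paired fit.

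The epithelial identity of all 6 libraries was plain. Members of a 10-gene epithelial list (Cdh1, Epcam, Vil1, Hnf4a, keratins and others) summed to 185132 to 210445 with direct and 167407 to 194146 with indirect CAP. Markers of fibroblasts and muscle summed to 27 to 44 and 41 to 47, with Lum and Dcn at 0 in every library, and 9 of the 11 never exceeded 10. Endothelial and glial markers summed to 51 to 97 and 64 to 96, with Kdr and Hbb-bs at 0. Immune markers summed to 420 to 547 and 472 to 532, of which 245 to 283 came from Csf1r, and Ptprc did not exceed 7.

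No gene separated the routes at the threshold of the study, an adjusted p under 0.01 with at least a 2-fold difference: 0 of 19206 genes passed (0%) when the organoid line was kept as a block in limma. The smallest adjusted p was 0.086, that of Fosb. At an unadjusted p under 0.05, 3050 genes (15.9%) were higher and 935 (4.87%) lower with indirect CAP. Indirect CAP was higher in every line for 5984 genes (31.2%) and lower in every line for 2416 (12.6%). These 4 shares are the background against which the counts of members below are to be read. The split depended on the scaling: among genes at an unadjusted p under 0.05, 76.5% were higher with indirect CAP, against 54.6% after quantile normalization, and centring the libraries on the 500 genes with the highest means gave 3857 higher and 568 lower. The median over all genes was 0.09.

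The distance between the routes differed by line. Over 13105 well measured genes the median size of the log2 difference between direct and indirect CAP was 0.28 in line 2, 0.17 in line CD1 and 0.12 in line WT2. Within direct CAP, by comparison, the lines differed from each other by 0.20 to 0.31, and within indirect CAP by 0.14 to 0.21. In line 2 the indirect library lay nearer to the PAM library (0.16) than to the direct library. In lines CD1 and WT2 it lay nearer to the direct library, with distances of 0.25 and 0.24 to PAM. The differences of the 3 lines correlated across 13173 genes at 0.55 (2 and CD1), 0.35 (2 and WT2) and 0.46 (CD1 and WT2), which is a description only, since genes are not replicates.

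Fosb, which encodes a subunit of the AP-1 transcription factor and is induced within minutes of a stimulus, led the list. By the study's account the treated medium had been replaced a day before the transcriptome was analysed. It stood at 43, 161 and 35 after direct CAP and at 160, 811 and 248 with indirect CAP. Each line was several fold higher with indirect CAP, although the lowest indirect library (line 2) stood just below the highest direct one (line CD1). The fitted difference was 2.33 ± 0.34 (SE, n = 3 lines), a 5.02-fold difference, with a 95% interval of 1.62 to 3.04. The adjusted p of limma was 0.086 over the 18 treated libraries. It was 0.15 over the 9 libraries of direct CAP, indirect CAP and PAM, and 0.016 when only the 6 libraries entered. Untreated organoids held 11 (line CD1), 56 (WT2), 16 (line 1) and 10 (line 2), and PAM libraries 7, 47 and 25, so indirect CAP held the highest Fosb of these 4 groups in every line.

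Other members of the group were higher too. Fos went from 1167, 1211 and 733 to 1481, 2190 and 1173, a difference of 0.63 ± 0.20. Egr1, an immediate early zinc finger factor, went from 490, 817 and 674 to 958, 1460 and 1038, a difference of 0.81 ± 0.19. For both genes all 3 lines were higher with indirect CAP, the libraries of Egr1 did not overlap between groups while those of Fos did, and neither passed the threshold. Of the 27 immediate early genes tested, 12 (44.4%) were higher and 6 (22.2%) lower in every line, and 5 were higher and 0 lower at an unadjusted p under 0.05, the last of these being the nuclear receptor Nr4a2 (0.39 ± 0.16) and the phosphatase Dusp4 (0.25 ± 0.12). Their median was 0.10. Jun, Junb and Jund, the partners of Fos proteins in AP-1, differed by 0.01 ± 0.20, -0.06 ± 0.12 and 0.00 ± 0.12. Ier3 (-0.51 ± 0.29), Klf6 (-0.26 ± 0.24) and Dusp1 (-0.33 ± 0.41) were lower in every line.

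The stretches from 160 to 11 bases before the RefSeq start sites of Fosb and Fos are shown because these genes were the AP-1 members with the largest differences. Capitals mark the letters TGACG (or CGTCA on the other strand), the core of the cAMP response element. Fosb lies on the minus strand at chr7:19310056-19310205 and Fos on the plus strand at chr12:85473730-85473879 (GRCm38.p6).
Fosb: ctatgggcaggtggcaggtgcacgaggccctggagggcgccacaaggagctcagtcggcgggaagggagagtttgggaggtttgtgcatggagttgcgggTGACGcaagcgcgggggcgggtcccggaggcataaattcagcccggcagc
Fos: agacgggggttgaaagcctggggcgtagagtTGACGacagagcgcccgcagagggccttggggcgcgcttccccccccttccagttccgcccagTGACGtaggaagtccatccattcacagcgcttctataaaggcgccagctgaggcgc
Fosb held 1 match, 60 bases before the start, and Fos 2, at 129 and 66 bases. The same letters stood in 12.9% of the 32851 RefSeq promoter stretches of this length and in those of 12 of the 23 immediate early genes with an entry, and a match is a description and marks no site of binding.

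**Figure D1:**
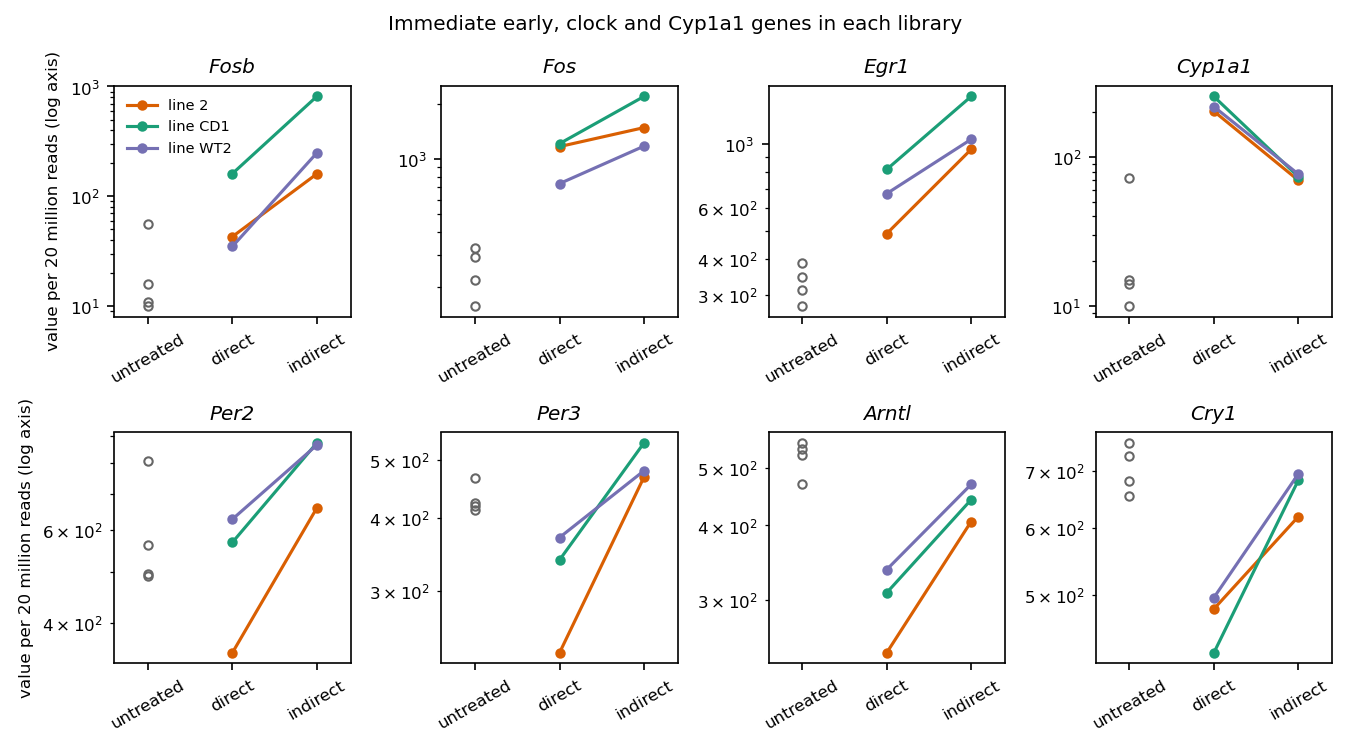
Value per 20 M reads (log axis) of 8 genes in the 4 untreated libraries (open circles) and in the 3 organoid lines after direct and with indirect CAP (points joined by line). Fosb, Fos, Egr1, Per2, Per3, Arntl and Cry1 were higher and Cyp1a1 lower with indirect CAP in all 3 lines.

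Genes of the circadian clock appeared 3 times among the 12 highest-ranked genes with indirect CAP, and the whole clock list was set up after that was seen. The clock is a transcriptional loop in which Clock and Arntl (BMAL1) drive the Per and Cry repressors. Per2 stood at 352, 568 and 628 after direct CAP and at 659, 874 and 866 with indirect CAP, a difference of 0.66 ± 0.11. Per3 went from 236, 339 and 370 to 468, 535 and 480, a difference of 0.67 ± 0.13, although it overlaps Camta1 on the same strand and reads of the pair may not be told apart. Arntl went from 244, 308 and 337 to 406, 442 and 469, a difference of 0.58 ± 0.11. For all 3 genes the libraries of both groups did not overlap, and each had an adjusted p of 0.115 in limma. The direction relative to untreated organoids differed between them: Arntl averaged 521 ± 35.8 (SD, n = 4) there, above both groups, while Per2 (589 ± 149) and Per3 (430 ± 24.5) lay between them.

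Other arms of the loop were Cry1, from 482, 428 and 497 to 619, 683 and 695 (0.51 ± 0.12), and Cry2, from 255, 292 and 356 to 421, 390 and 414 (0.45 ± 0.14). Of 17 clock genes tested 11 (64.7%) were higher and 2 (11.8%) lower in every line, 9 were higher at an unadjusted p under 0.05, and the median was 0.39. The counts of higher genes include Per2, Per3 and Arntl, which prompted the list, so they are no independent support. Per1 differed by 0.28 ± 0.16 and was higher in lines 2 and CD1 only. The list's longest annotated transcripts had a median of 3995 bases. Protein-coding genes of 2 to 4 kb and of 4 to 8 kb had median differences of 0.03 and 0.13. Clock itself (0.09 ± 0.08), the output gene Dbp (0.16 ± 0.24) and the repressors Nr1d1 (-0.16 ± 0.14) and Nr1d2 (-0.19 ± 0.12) stood closer to 0. The E-box repressor Bhlhe40 went from 1966, 1590 and 2429 to 2725, 2350 and 2807 (0.41 ± 0.13), and Nfil3 from 197, 163 and 260 to 212, 255 and 351 (0.39 ± 0.11). The hour at which each culture was lysed was not given in the sources used here, and its part in these values was not tested.

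E-boxes, the letters CACGTG that read the same on both strands, are bound by Clock and Arntl, and the promoter stretches of Cry1 and Ciart are shown because they hold them (capitals). Cry1 lies at chr10:85185065-85185214 and Ciart, an Arntl repressor, at chr3:95882239-95882388, both on the minus strand of GRCm38.p6.
Cry1: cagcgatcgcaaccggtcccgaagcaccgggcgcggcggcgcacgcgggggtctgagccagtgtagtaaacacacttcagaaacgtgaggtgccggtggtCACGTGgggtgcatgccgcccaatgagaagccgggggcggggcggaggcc
Ciart: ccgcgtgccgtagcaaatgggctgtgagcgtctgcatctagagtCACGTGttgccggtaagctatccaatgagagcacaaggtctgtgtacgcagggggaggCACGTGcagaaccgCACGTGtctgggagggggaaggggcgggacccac
Cry1 held 1 match, at 60 bases before the start, and Ciart 3, at 116, 58 and 44 bases before it. Of the 17 clock genes tested 14 had a promoter entry, and 3 of these (Cry1, Ciart and Tef) held the letters. The letters stood in 4.2% of all RefSeq promoter stretches of this length, and nothing is read from the pair shown, which was picked for holding them. Ciart went from 136, 121 and 146 to 145, 211 and 201, a difference of 0.45 ± 0.17.

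The other genes that the ranking put first among those higher with indirect CAP were of mixed function. Shank2, a scaffold protein of the apical membrane and of synapses, stood at 141, 262 and 311 after direct CAP and at 384, 532 and 503 with indirect CAP (1.05 ± 0.18), and at 892 ± 240.2 (SD, n = 4) in untreated organoids. Rfx3, a transcription factor of ciliated and endocrine cells, went from 191, 288 and 325 to 349, 540 and 447 (0.74 ± 0.13). Rbpj, the transcription factor of the Notch pathway, went from 221, 292 and 268 to 303, 410 and 366 (0.46 ± 0.09). In these 3 genes, and in E2f2 (0.45 ± 0.09) and Pcbp4 (0.64 ± 0.13), no direct library reached an indirect library of its group, and the untreated mean lay above both groups. Ctif (0.69 ± 0.13), Masp2 (0.84 ± 0.16) and Dleu2 (0.87 ± 0.16) completed the 12, and the last of these, like Masp2 and Pcbp4, overlaps protein-coding genes of the other strand. Adjusted p was 0.115 for each of the 11 genes after Fosb.

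**Figure D2:**
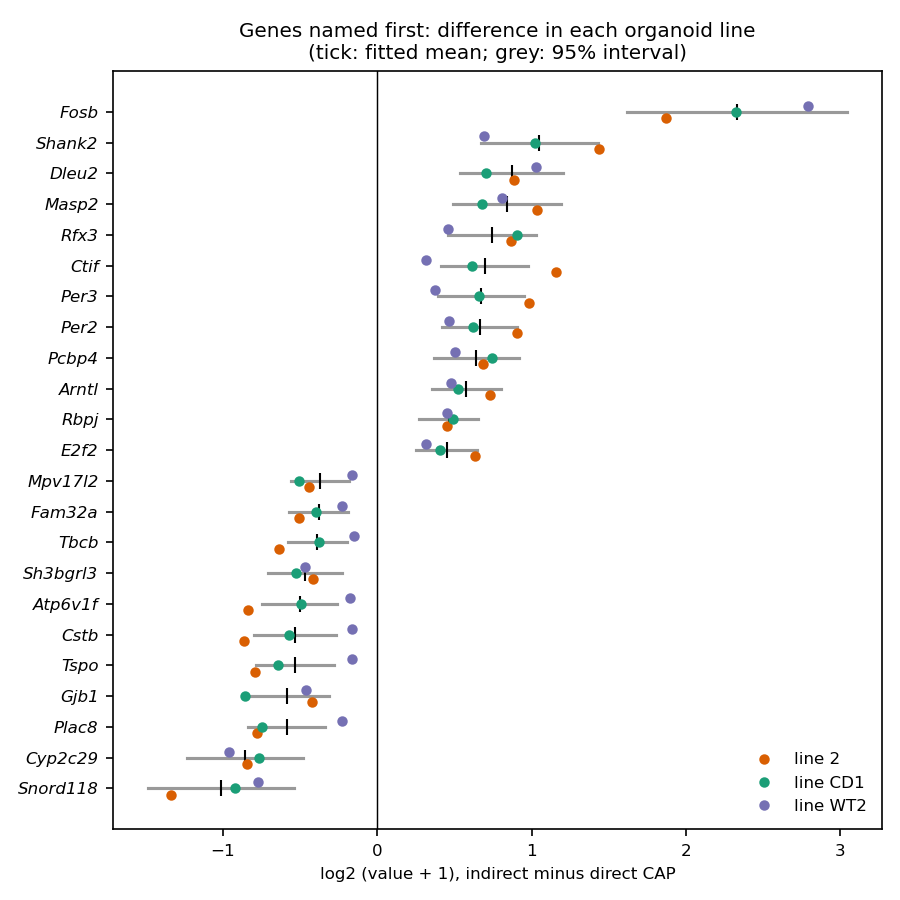
Log2 difference (indirect minus direct CAP) of the genes named first, 12 higher and 11 lower with indirect CAP. Points are the 3 organoid lines, ticks the fitted means and grey bars the 95% intervals; every point lies on the side of its gene's mean, from 2.79 for Fosb in line WT2 to -1.34 for Snord118 in line 2.

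Genes of the fetal-like and regeneration programme were lower with indirect than with direct CAP. Of the 26 tested, 22 (84.6%) were lower and 0 higher in every line, 6 were lower at an unadjusted p under 0.05, and the median was -0.54, or 1.46-fold. Line medians were -0.39, -0.68 and -0.42, so that the list was lower in WT2 as well. S100a6, a calcium-binding protein, stood at 10612, 8266 and 4470 after direct CAP and at 6792, 5092 and 3640 with indirect CAP (-0.55 ± 0.15). Anxa3, an annexin, went from 7721, 4811 and 2232 to 4804, 3060 and 1724 (-0.57 ± 0.19). Clu, which marks the revival stem cell, went from 15427, 16945 and 10690 to 12642, 8057 and 7953 (-0.60 ± 0.38), and Msln, mesothelin, from 25510, 23377 and 10613 to 21936, 12679 and 8209 (-0.49 ± 0.28).

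All 3 lines were lower for each of these 4 genes, and the lines differed so widely in level that the libraries of both groups overlapped. Further members that were lower in every line at an unadjusted p under 0.05 were Krt7 (-0.42 ± 0.17), Anxa1 (-0.65 ± 0.28), Il1rn (-0.54 ± 0.25) and Ly6d (-0.94 ± 0.35). The exceptions to the direction were the EGF receptor ligands Hbegf, at 574, 443 and 366 against 522, 508 and 387 (0.05 ± 0.19), and Ereg, the connexin Gja1, at no more than 15 in any of the 6 libraries, and the desmosomal cadherin Dsg3, at 135, 77 and 101 against 137, 37 and 62. Ly6a (Sca-1), a marker of the fetal-like state, went from 2554, 1275 and 900 to 1375, 842 and 839 (-0.53 ± 0.28). For 22 of the 26 genes the group means ran from untreated through indirect to direct CAP. The study named Clu, Ly6a and Areg among the genes that CAP induced in these libraries. The low place of untreated organoids in that order is therefore no independent evidence. Clu stood at 998 to 5506 in untreated organoids, below every library of both groups, and Areg, another EGF receptor ligand, at 198 to 882 against 3308 to 6369 with direct and 3005 to 4455 with indirect CAP. The members' longest transcripts had a median of 1848 bases, and protein-coding genes between 1 and 2 kb had a median difference of -0.11.

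**Figure D3:**
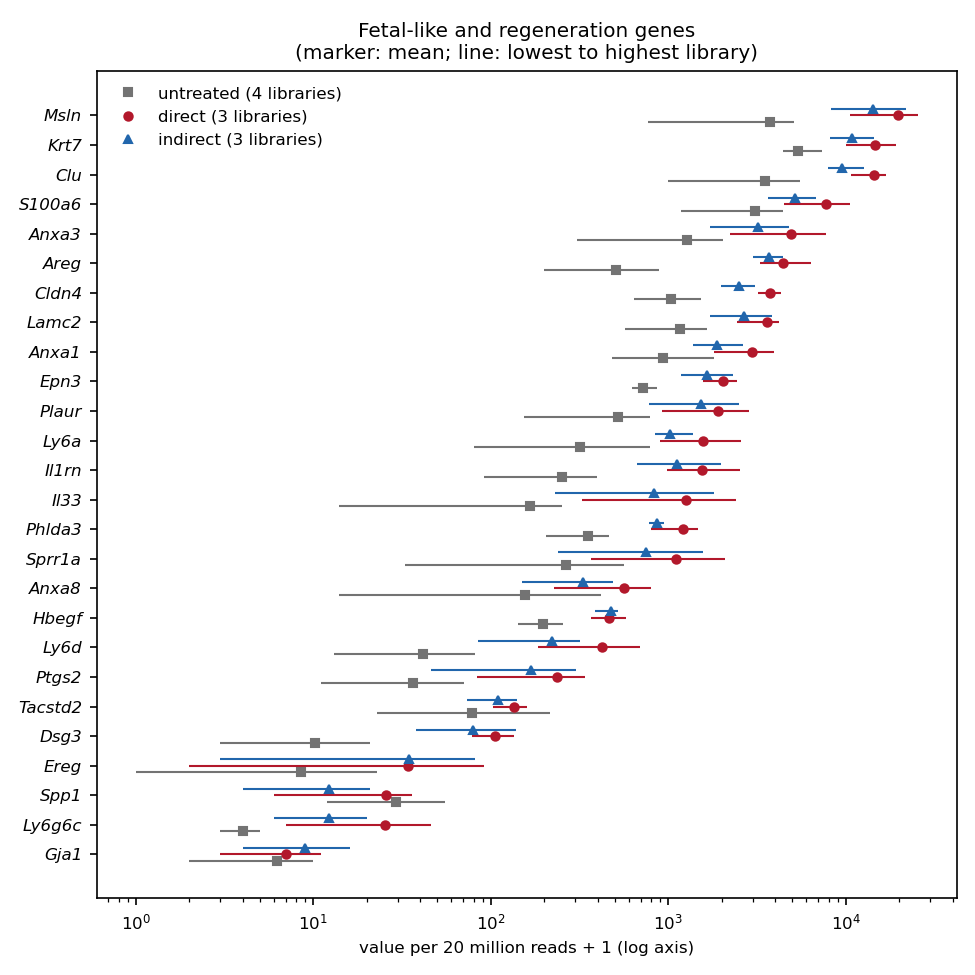
Value per 20 M reads + 1 (log axis) of the 26 fetal-like and regeneration genes, as the mean (marker) and the lowest to highest library (line) of untreated (n = 4), direct (n = 3) and indirect CAP (n = 3). For 22 genes the indirect mean lies between the untreated and the direct mean.

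Other families of the same kind, picked after their values were seen, were lower as well. S100 calcium-binding proteins were lower in every line for 9 of the 11 tested, with a median of -0.55. S100a6 is among them and is also counted in the regeneration list. S100a10 went from 5546, 3537 and 2287 to 2935, 2103 and 2009 (-0.62 ± 0.16), and S100a7a from 575, 447 and 88 to 273, 199 and 56 (-0.96 ± 0.29). S100a1 (-0.60 ± 0.16), S100a11 (-0.45 ± 0.13), S100a13 (-0.59 ± 0.24), S100a14 (-0.55 ± 0.19) and S100a16 (-0.51 ± 0.16) were lower in every line. The longest transcripts of this family have a median of 715 bases. Protease inhibitors of serpin clade B were lower in every line for 7 of 8, with a median of -0.56. Serpinb9b, at chr13:33027416-33041884, stood at 5679, 2869 and 896 after direct CAP and at 2755, 1277 and 501 with indirect CAP, a difference of -1.02 ± 0.27 with an adjusted p of 0.022 in the fit of 6 libraries and 0.12 in that of 18. Its antisense model AL589871.1 (-0.98 ± 0.30) overlaps it, and without the strand of the counting the pair cannot be told apart. Serpinb1a (-0.57 ± 0.14), Serpinb5 (-0.68 ± 0.24), Serpinb6a (-0.40 ± 0.13) and Serpinb6b (-0.84 ± 0.27) were lower in every line. Some members of the clade are close copies between which reads may be shared.

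Plac8, a small cysteine-rich protein, went from 13769, 11878 and 9350 to 8016, 7059 and 7965 (-0.59 ± 0.12), and the 2 groups did not overlap. Gjb1 (connexin 32) went from 3032, 2241 and 1486 to 2259, 1236 and 1076 (-0.58 ± 0.13). Psca, a cell-surface antigen, went from 5086, 2070 and 1168 to 2652, 703 and 564 (-1.18 ± 0.46), and Mup20, a lipocalin with many close copies, from 847, 251 and 289 to 367, 89 and 149 (-1.21 ± 0.35). For the last pair the adjusted p was 0.031 and 0.041 in the fit of 6 libraries, and 0.18 and 0.12 in that of 18. The other genes named among those ranked lowest were Snord118 (-1.01 ± 0.22), Tspo (-0.54 ± 0.12), Atp6v1f (-0.50 ± 0.11), Tbcb (-0.39 ± 0.09), Cstb (-0.53 ± 0.13), Mpv17l2 (-0.37 ± 0.09), Fam32a (-0.38 ± 0.09) and Sh3bgrl3 (-0.47 ± 0.11), 6 of which have transcripts under 1 kb. Tspo, Tbcb, Mpv17l2 and Sh3bgrl3 overlap protein-coding genes of the other strand.

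Cyp1a1, the xenobiotic oxidase that the aryl hydrocarbon receptor (AhR) induces, had groups that were far apart. It stood at 203, 255 and 218 after direct CAP and at 70, 74 and 77 with indirect CAP. The difference was -1.59 ± 0.49, or 3.02-fold, with line values of -1.52, -1.77 and -1.49, and the groups did not overlap. Its adjusted p was 0.022 in the fit of 6 libraries and 0.13 in that of 18. PAM libraries held 111, 704 and 159. Of 4 untreated libraries 3 held 10 to 15 and that of line 1 held 73. Cyp1b1, another AhR target, went from 37, 25 and 57 to 21, 9 and 15 (-1.34 ± 0.52), and the AhR repressor Ahrr from 89, 59 and 22 to 50, 42 and 14 (-0.64 ± 0.35). Arnt, the partner of the receptor, was higher in every line (0.24 ± 0.08), Ahr itself differed by 0.14 ± 0.10 and Tiparp by 0.07 ± 0.11. The list of 8, set up after Cyp1a1 was seen, had a median of -0.43.

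Cytochromes of the 2C family, which oxidize fatty acids and drugs, were lower in every line for 7 of 14, again in a list set up after the fact. Cyp2c29 went from 3407, 8264 and 7736 to 1896, 4857 and 3980 (-0.86 ± 0.18), with adjusted p of 0.031 and 0.115 in the fits of 6 and 18 libraries. Cyp2c55 (-0.58 ± 0.20), Cyp2c39 (-0.82 ± 0.33) and Cyp2c66 (-0.37 ± 0.13) were lower in every line, and Cyp2c38 (-0.08 ± 0.28) and Cyp2c70 (-0.02 ± 0.22) were not. Members of the family are near copies, so that their values are not independent.

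Stem cell markers stood higher with indirect CAP. Of 15 tested, 12 (80%) were higher and 1 (6.67%) lower in every line, with a median of 0.34, but 1 gene was higher at an unadjusted p under 0.05, the adrenergic receptor Adra2a (0.34 ± 0.15). Lgr5, the receptor that marks crypt base stem cells, stood at 128, 354 and 548 after direct and at 186, 566 and 620 with indirect CAP, a difference of 0.46 ± 0.50. Olfm4 went from 3058, 4979 and 5417 to 3046, 8373 and 6311 (0.32 ± 0.55), and Smoc2 from 1107, 1924 and 2152 to 1408, 2985 and 2753 (0.45 ± 0.33). The SE of Lgr5 and Olfm4 exceeded the difference, and line CD1 held the highest median (list medians of 0.20, 0.63 and 0.18). For 14 of the 15 the means ran from untreated through indirect to direct CAP in falling order, and untreated libraries held 1281 to 2822 Lgr5. The study named Lgr5, Olfm4, Smoc2 and Axin2 among the genes that CAP lowered in these libraries. The high place of untreated organoids is therefore no independent evidence. PAM libraries held 53, 32 and 110 Lgr5 and 1098, 212 and 612 Olfm4, below every direct and indirect library. Prom1, which is also found outside stem cells, was the member that was lower in every line (-0.26 ± 0.16). The list's longest transcripts had a median of 4051 bases, and protein-coding genes of 4 to 8 kb had a median difference of 0.13.

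Of 15 Wnt target and feedback genes 8 (53.3%) were higher and 1 lower in every line, with a median of 0.15. The longest transcripts of this list had a median of 4310 bases. Protein-coding genes of 4 to 8 kb had a median difference of 0.13, close to that of the list, and 42% of them were higher in every line. Ephb2, a receptor of the crypt base, went from 2245, 2718 and 3033 to 3243, 3261 and 3315 (0.31 ± 0.10), and the Wnt receptor ligase Znrf3 from 390, 615 and 688 to 524, 795 and 812 (0.34 ± 0.15). Genes of the S phase and of G2/M were close to the background in the share higher in every line. They held 16 of 43 (37.2%) and 20 of 54 (37%) such genes, with medians of 0.08 and 0.07. Among G2/M genes only Cdc20 (-0.09 ± 0.14) was lower in every line, against 12.6% of all genes tested. Mki67, a proliferation antigen, differed by 0.23 ± 0.16, the replication inhibitor Gmnn by -0.40 ± 0.15 and the microtubule protein Ckap5 by 0.36 ± 0.12. Of 20 entries in the YAP list 7 (35%) were higher and 3 lower in every line, with a median of 0.10. These shares were close to those of all genes tested (31.2% and 12.6%), and Lats2 is counted under 2 entries. Tead1 (0.42 ± 0.15), Yap1 itself (0.18 ± 0.07), Dock5 (0.34 ± 0.11) and Arhgef17 (0.70 ± 0.20) were among those higher in every line. The 3 lower in every line were F3 (-0.44 ± 0.28), Ankrd1 (-0.30 ± 0.27) and Ajuba (-0.10 ± 0.21). The longest transcripts of this list had a median of 4562 bases.

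Among the mature cell types the goblet and Paneth lists were lower. Goblet cell genes were lower in every line for 10 of 16 (62.5%) and higher in 0, with a median of -0.28. The trefoil peptide Tff3 went from 14596, 9724 and 9630 to 9483, 5708 and 8525 (-0.52 ± 0.31), and the mucin Muc2 from 5832, 8927 and 21096 to 5108, 5919 and 17540 (-0.35 ± 0.38). Fcgbp (0.08 ± 0.35) and the lineage factor Atoh1 (0.01 ± 0.35) were on neither side. Paneth cell genes were lower in every line for 10 of 18 (55.6%), with a median of -0.27. Lysozyme Lyz1 went from 6068, 9830 and 13081 to 3757, 7179 and 11584 (-0.44 ± 0.33). The Paneth list was mixed, since the lectin Reg3g (0.63 ± 0.58), Mptx1 (0.38 ± 0.46) and Pla2g2a (0.50 ± 0.70) were higher in every line. The members lower at an unadjusted p under 0.05 were Reg4 (-0.66 ± 0.18) of the Paneth list and Ramp1 (-0.84 ± 0.34) of the goblet list. Reg4 is also counted in the enteroendocrine list below. In bulk RNA fewer cells of a type and less RNA per cell cannot be told apart. Many defensins and trefoil peptides have short transcripts, with a median of 791 bases in the Paneth list and 2079 in the goblet list.

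Of 32 enterocyte genes 6 (18.8%) were higher and 8 (25%) lower in every line, with a median of -0.04. Lactase (Lct) went from 10, 39 and 625 to 32, 119 and 1027 (1.30 ± 0.47), and the purine enzyme Ada from 1660, 817 and 721 to 1096, 431 and 518 (-0.67 ± 0.27). Enteroendocrine genes had 3 higher and 5 lower in every line of 21 and tuft cell genes 3 and 1 of 9. The neuropeptide Nts went from 279, 192 and 54 to 115, 54 and 51 (-1.05 ± 0.44), and Il17rb, the tuft cell receptor of IL-25, from 22, 37 and 35 to 34, 56 and 51 (0.57 ± 0.24). Keratin and desmosome genes were lower in every line for 9 of 20 (45%), among them Krt14, a basal keratin that is scarce here, from 93, 34 and 8 to 38, 11 and 4 (-1.22 ± 0.27). The simple epithelial keratin Krt18 went from 22945, 16876 and 16711 to 17268, 13478 and 15193 (-0.29 ± 0.13). Krt7 and Dsg3 of this list are also counted in the regeneration list.

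Antioxidant genes leaned to lower values with indirect CAP in count, by small differences, while several well-known NRF2 targets stood near 0. Cystine transporter Slc7a11, which feeds glutathione synthesis, stood at 4809, 4306 and 4148 after direct CAP and at 5006, 4325 and 4202 with indirect CAP (0.03 ± 0.22), against 779 to 1206 in untreated organoids. Thioredoxin reductase Txnrd1 (-0.01 ± 0.13), Gclc (-0.01 ± 0.22) and Srxn1 (-0.05 ± 0.18) stood as close to 0. Of the 30 NRF2 targets 16 (53.3%) were lower and 1 (3.33%) higher in every line, with a median of -0.08, and 4 were lower at an unadjusted p under 0.05. These were the glutathione transferases Gstk1, from 1522, 888 and 991 to 870, 612 and 774 (-0.57 ± 0.16), and Gsta4 (-0.32 ± 0.12), the sulfur dioxygenase Ethe1 (-0.45 ± 0.13) and Taldo1 (-0.18 ± 0.07). Hmox1, heme oxygenase, went from 454, 264 and 305 to 393, 236 and 232 (-0.25 ± 0.16).

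Enzymes that remove reactive oxygen were lower in every line for 7 of 13 (53.8%), with a median of -0.25. Glutathione peroxidase Gpx1 went from 9353, 9298 and 7113 to 6111, 6392 and 6357 (-0.44 ± 0.11), Gpx4 from 6686, 5608 and 4648 to 3796, 3965 and 4671 (-0.44 ± 0.14) and Sod1 from 6395, 6128 and 6028 to 4568, 5585 and 5746 (-0.23 ± 0.10). Catalase, whose transcript is longer than those, differed by 0.17 ± 0.22. Peroxiredoxin Prdx5 differed by -0.33 ± 0.11. The line medians of this list were -0.54, -0.22 and -0.01, and its longest transcripts had a median of 1826 bases, a measure that moved with the difference in lines 2 and CD1 and is taken up further on.

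Targets of ATF4, the factor of the integrated stress response, leaned to indirect CAP: 19 of 35 (54.3%) were higher and 0 lower in every line, 8 were higher at an unadjusted p under 0.05, and the median was 0.19 (0.04, 0.36 and 0.20 in the lines). Stanniocalcin Stc2 went from 527, 819 and 631 to 717, 1390 and 861 (0.55 ± 0.18), and the serine pathway enzyme Shmt2 from 2467, 3103 and 3457 to 3064, 4537 and 4059 (0.36 ± 0.13). Synthetases of transfer RNAs, Cars (0.34 ± 0.08), Mars (0.25 ± 0.07), Eprs (0.29 ± 0.10) and Aars (0.29 ± 0.09), were higher in every line, as were the arginine transporter Slc7a1 (0.34 ± 0.14) and the transcription factor Cebpb (0.30 ± 0.14). Chac1 (0.14 ± 0.14) and Ddit3 (0.20 ± 0.16), the glutathione-degrading and pro-death members, were higher in 2 of 3 lines. Targets of p53 leaned the other way, with 13 of 28 (46.4%) lower and 1 (3.57%) higher in every line and a median of -0.25. Ccng1, cyclin G1, went from 14037, 13717 and 8469 to 9292, 8882 and 7843 (-0.44 ± 0.17), Mdm2 differed by -0.25 ± 0.14 and Cdkn1a (p21) by -0.13 ± 0.11. Perp (-0.35 ± 0.11), Btg2 (-0.28 ± 0.12), Ei24 (-0.27 ± 0.11) and Dcxr (-0.40 ± 0.15) were lower in every line, and Rps27l (-0.52 ± 0.17) in lines 2 and CD1.

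Of 24 genes of the endoplasmic reticulum stress response 12 (50%) were lower and 2 (8.33%) higher in every line, with a median of -0.09. The sensors Ern1 (0.36 ± 0.14) and Atf6 (0.22 ± 0.09) were higher, and the folding helpers Sdf2l1 (-0.33 ± 0.14), Manf (-0.26 ± 0.11), Selenok (-0.38 ± 0.14) and Pdia3 (-0.17 ± 0.07) lower. The chaperone Hspa5 stood at 10936, 9432 and 10423 against 9676, 9715 and 10214 (-0.05 ± 0.09). Cytosolic and mitochondrial heat shock genes had 2 higher and 5 lower in every line of 18, with a median of -0.06. Of 25 genes of cholesterol synthesis and uptake 11 (44%) were lower and 4 (16%) higher, with the sterol isomerase Ebp going from 2077, 1837 and 1424 to 1591, 1256 and 1153 (-0.41 ± 0.11). Of 30 PPAR targets 3 were higher and 7 lower in every line, and of 8 metallothionein and zinc genes and 8 aquaporins 2 were higher and 1 lower each.

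Of 27 stress genes that the study itself singled out on these libraries, 10 (37%) were lower and 4 (14.8%) higher in every line, with a median of -0.14, and of its 12 apoptosis genes 4 (33.3%) were lower and 0 higher, with a median of -0.09. Because the study chose them here, they are no independent evidence of direction. Cathepsin Ctsl went from 4247, 2512 and 2302 to 2736, 1633 and 1956 (-0.50 ± 0.15), and Gch1, which makes tetrahydrobiopterin, from 2386, 1256 and 1139 to 1644, 696 and 959 (-0.55 ± 0.21). Pmepa1 (-0.37 ± 0.16) was lower in every line and Ggh (-0.54 ± 0.19) in lines 2 and CD1. The netrin receptor Unc5b (0.12 ± 0.21) and Capn12 (0.04 ± 0.10) stood near 0.

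Of 29 interferon-stimulated genes 12 (41.4%) were higher and 2 (6.9%) lower in every line, with a median of 0.32 that came from lines 2 (0.32) and WT2 (0.31) and less from CD1 (0.04). Ddx58 (RIG-I), a sensor of viral RNA, went from 247, 261 and 374 to 423, 364 and 450 (0.51 ± 0.13), Stat2 from 396, 365 and 396 to 687, 431 and 552 (0.50 ± 0.18) and Oas2, which was scarce, from 4, 3 and 10 to 29, 4 and 20 (1.28 ± 0.51), and Parp14 differed by 0.44 ± 0.18. Of 22 chemokine and cytokine genes 8 (36.4%) were lower in every line; Cxcl16 went from 4143, 2012 and 1807 to 3112, 1395 and 1395 (-0.44 ± 0.20), and the alarmin Il33 from 2417, 1021 and 327 to 1811, 443 and 230 (-0.71 ± 0.34), while Lcn2 did not exceed 10 in any of the 6 libraries. Glycolysis and hypoxia genes were higher in every line for 15 of 29 (51.7%), with a median of 0.14; Vegfa went from 1526, 1567 and 1956 to 1959, 2353 and 2609 (0.45 ± 0.21), the phosphofructokinase Pfkp differed by 0.35 ± 0.11 and Higd1a by -0.49 ± 0.20.

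Housekeeping genes with short transcripts were lower as well, with medians away from 0 in line 2 and, histone genes apart, in line CD1. Nuclear genes of the respiratory chain were lower in every line for 43 of 79 (54.4%), and 49 of the 79 were lower at an unadjusted p under 0.05, with line medians of -0.67, -0.32 and -0.01. Cox6b1, a subunit of cytochrome oxidase, went from 5006, 4737 and 4169 to 3050, 3633 and 3884 (-0.40 ± 0.12). Proteasome genes had line medians of -0.44, -0.23 and -0.01, ribosomal protein genes -0.60, -0.21 and 0.09, and histone genes -0.78, -0.01 and 0.10. Of 11 respiratory chain genes of the mitochondrial genome 4 (36.4%) were higher and 0 lower in every line, with a median of 0.10 that lay close to that of all genes. In this list mt-Nd5 (0.28 ± 0.13) and mt-Nd6 (0.40 ± 0.17) had an unadjusted p under 0.05, mt-Co1 differed by 0.10 ± 0.11, and mt-Co2, at no more than 16, by -0.32 ± 0.49. The 13 protein-coding genes of the mitochondrial genome took 0.526%, 0.626% and 0.549% of the total after direct and 0.519%, 0.745% and 0.621% with indirect CAP. Mitochondrial ribosomal and transfer RNAs are not in that sum, and 3 of the 13 genes did not exceed 10 in any of the 6 libraries. The percentages are therefore not the mitochondrial share of the RNA.

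In lines 2 and CD1 the difference ran with length over all protein-coding genes sorted by their longest transcript in GENCODE, to which 99.7% of the genes tested were matched. Below 1 kb the median difference was -0.55 in line 2 and -0.22 in CD1, and from 8 kb it was 0.46 and 0.17. In WT2 the bins ran from 0.03 to 0.07, without a gradient. Of 751 genes under 1 kb 8.4% were higher and 28.4% lower in every line, and of 754 genes of 8 kb or more 53.8% and 3.1%. Transcript models that the annotation holds as unconfirmed were higher with indirect CAP, with a median of 0.77 over 1070 of them (1.32, 0.21 and 0.68 in the lines), and 2485 long noncoding RNAs had a median of 0.23. Among abundant nuclear RNAs, Neat1 went from 8287, 10519 and 7935 to 13808, 14256 and 13056 (0.63 ± 0.20), Kcnq1ot1 from 963, 2357 and 1779 to 2662, 2801 and 2983 (0.82 ± 0.24) and Malat1 from 40779, 63836 and 42453 to 68756, 66098 and 56789 (0.41 ± 0.21). The list these come from had a median of 0.14. Its members Gas5 (-0.04 ± 0.18), Snhg1 (-0.09 ± 0.20), Snhg12 (-0.07 ± 0.21) and Fer1l4 (-0.30 ± 0.33) were not higher. Whether length, RNA quality or nuclear RNA had a part in any difference above was not tested.

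**Figure D4:**
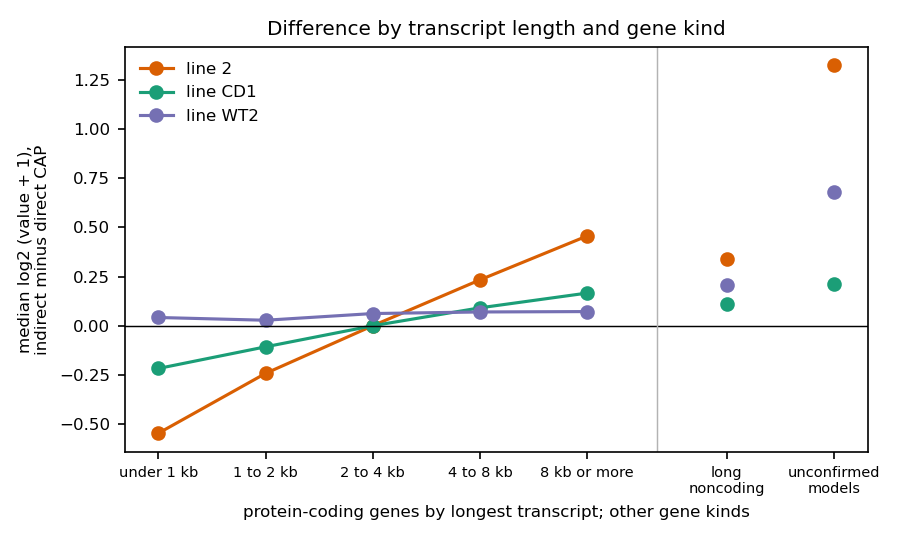
Median log2 difference (indirect minus direct CAP) in each organoid line for protein-coding genes binned by their longest annotated transcript, and for long noncoding RNAs and unconfirmed transcript models. Medians climb from -0.55 to 0.46 in line 2 and from -0.22 to 0.17 in CD1, and stay between 0.03 and 0.07 in WT2.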

How the data were processed

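By the submitters' notes the authors trimmed reads with Trimmomatic 0.36, aligned them to GRCm38.p4 with STAR 2.5.3a and counted them with HTSeq 0.9.1. They deposited 1 score per gene and library, read here as a count scaled to a total of 20 M (M, mega) and rounded up, although the study's methods define the unit per kilobase as well, so no count model was applied. Whether counting used strand was not given in the sources used here. Such values are shares: a gene can be lower because others are higher.

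Log2(value + 1) was fitted in limma 3.58.1 (R 4.3.3) with a variance trend and with group and organoid line as terms, over the 18 treated libraries, because 6 libraries leave 2 residual degrees of freedom. Genes needed a value of 10 in 3 libraries, and p-values were adjusted by Benjamini-Hochberg over all of them. Each line is 1 mouse, so lines pair the samples. Deviations from the group means, with line effects left in, correlated at 0.22 to 0.81 in all 45 same-line pairs of different groups. Pairs of different lines and groups correlated at -0.65 to 0.21. An exact paired permutation test of 3 lines cannot go below 0.25 and was not used.

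Named first were, in each direction, the 12 genes of smallest unadjusted p with 3 of 3 lines on 1 side and a mean of at least 50 in either group, and of each list members at an unadjusted p under 0.05 or of high mean; others were named after their values were seen, and 3 genes that the rule names are not reported here. Members, lists and tests were chosen with earlier results of these data known, and 5 lists (clock, AhR, S100, serpin B, Cyp2c) after the values of this comparison were seen. Promoters come from RefSeq and gene models from GENCODE vM21. The fit was tested on simulated data. Alternatives were other sets of libraries, no block, pseudocounts, filters, scalings, and leaving out each library and line.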

Additional observations from a re-analysis of the deposited data

Results flagged for a closer look

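In 5 of the 30 genes checked, 1 of the 4 untreated libraries stood apart from the other 3 by a gap that took up most of the group's range (Dixon's 95% limit), which chance passes in about 1 of 20 groups. Fosb was 56 in untreated line WT2, against 10 to 16 in the others. Cyp1a1 was 73 in untreated line 1, against 10 to 15. Dleu2 was 505 in untreated line 1, against 303 to 324. Atp6v1f was 1060 in untreated line CD1, against 1339 to 1369, and Mpv17l2 was 962 in untreated line 2, against 713 to 746. These libraries enter no test of indirect against direct CAP. The groups of 3 were not examined in this way.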

How the results depend on the processing

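Over 21 alternatives no gene was past the threshold, with 1 exception added after seeing the data: at an adjusted p under 0.05 without a minimum fold, 8 genes were called in the fit of the 6 libraries with the replicate block, among them Fosb (2.33) higher, and Cyp1a1 (-1.59), Serpinb9b (-1.02), Cyp2c29 (-0.86), Psca (-1.18), Mup20 (-1.21) and AL589871.1 (-0.98) lower. With the block, 2796 genes were higher and 1105 lower at an unadjusted p under 0.05 in that fit. Without the block, 1837 and 474 were in the fit of 18 libraries, and 960 and 268 in that of 6. Quantile normalization gave 2010 and 1672, and centring on the 500 genes of highest mean 568 lower. Leaving out single libraries or lines gave 1157 to 3214 higher and 186 to 1914 lower genes. The fewest were higher without line 2, and lower without line CD1, and the most were lower (1914) without the direct library of WT2; the cause was not tested. All 30 genes followed kept 1 direction throughout, with Fosb between 2.04 and 2.56. With the 9 libraries of direct CAP, indirect CAP and PAM, limma's adjusted p was 0.15 for Fosb, Cyp1a1, Serpinb9b, Cyp2c29, Psca and Mup20. Of 43 list medians 31 kept their sign, the regeneration list between -0.59 and -0.46, stem cell markers between 0.25 and 0.47 and ATF4 targets between 0.12 and 0.28, and 12 (immediate early, G2/M and histone genes among them) changed it at least once. With 3 lines and a median SE of 0.17, small differences were not detectable.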
